A study of Mus musculus with 15 samples.

Results

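The genes of mitochondrial protein import were followed in cardiomyocyte RNA from 3 vector groups. They were chosen by symbol: all Timm and Tomm symbols followed by a digit, with Pam16, Dnajc19, Grpel1, Grpel2, Pmpca, Pmpcb and Chchd4. The count table held 29 of these among 23337 genes. Of the 29, 27 passed a filter on low counts and were tested among 11814 genes. Timm8a2 had no count in any library, and Tomm20l had 1 count in 1 library of the DDIT3 group, so neither was tested. Timmdc1, which the choice also named, stood in the table under an older symbol.

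Mice with Cas9 and GFP at the Rosa locus were injected on postnatal day 1 with an adeno-associated virus (AAV), used to deliver a gene to tissues. The tested vectors were AAV-ATF4-2A-GFP and AAV-DDIT3-2A-GFP, and AAV-GFP was the control. All 3 groups therefore carried Cas9 and GFP, and the labels do not state the promoter of the vectors. Cardiomyocytes were obtained at 4 weeks of age by Langendorff perfusion, in which the heart is digested through its own vessels, and sorted by FACS. Each group had 5 libraries of polyA RNA. The labels do not say that all 5 came from separate animals. Sex-linked transcripts put libraries of both sexes in every group, so each group held at least 2 animals, and p-values reflect a spread between libraries that may be technical in part. ATF4 is the main transcription factor that the integrated stress response induces, and DDIT3 (CHOP) is a transcription factor induced by stress of the endoplasmic reticulum. The design asks what each of them does to transcripts of heart muscle cells.

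Most mitochondrial proteins are encoded in the nucleus, made in the cytosol and imported. They enter through the TOM complex of the outer membrane. Proteins with a cleavable presequence then pass the TIM23 translocase of the inner membrane, pulled in by a motor built on the mitochondrial Hsp70, and the processing peptidase removes the presequence. Metabolite carriers are escorted by small TIM chaperones to the TIM22 translocase instead, and the oxidoreductase Chchd4 traps small cysteine-rich proteins in the intermembrane space. Heart muscle is rich in mitochondria, and mutations of DNAJC19 cause a dilated cardiomyopathy in humans.

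Library totals lay between 6217744 and 8317249 counts. Atf4 averaged 399.2 ± 79.3 CPM (counts scaled to a common library total with TMM factors) in the ATF4 group and 71.1 ± 12.1 CPM in the GFP group (SD, n = 5 each). Ddit3 averaged 843.4 ± 179.3 CPM in the DDIT3 group and 15.6 ± 1.28 CPM in the GFP group. In the ATF4 group Ddit3 averaged 29.4 ± 7.61 CPM and was also higher than in GFP (log2 fold change 0.91 ± 0.17, edgeR adjusted p = 0.00061). In the DDIT3 group Atf4 averaged 66.4 ± 22.9 CPM. The vector's transcript and the animal's own cannot be told apart in these counts. All 7 cardiomyocyte markers looked for were tested, and their summed level was 68495 to 86493 CPM in ATF4, 83251 to 95009 CPM in DDIT3 and 84727 to 113114 CPM in GFP libraries. Of these markers, 4 of 7 were called lower in ATF4 against GFP, and 9 of 10 endothelial markers were called higher. The summed endothelial level was 1005 to 1445 CPM in ATF4, 424.7 to 721.2 CPM in DDIT3 and 441.2 to 889.1 CPM in GFP libraries. Of the markers of pericytes and smooth muscle, fibroblasts, leukocytes and atrial muscle, 4 of 7, 1 of 7, 0 of 4 and 1 of 5 were called higher in ATF4 against GFP and none was called lower. Of the 5 atrial values, 4 were negative and 1 positive (median log2 fold change -0.60). No marker was at 0 in all libraries. Xist and Y-linked transcripts put 4 ATF4, 4 DDIT3 and 3 GFP libraries with male animals. The libraries from females were replicate 2 of ATF4, replicate 2 of DDIT3, and replicates 4 and 5 of GFP.

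In the ATF4 libraries 7 of the 27 tested import genes fell and 1 rose against GFP. Those that fell were Tomm40l, Timm17b, Timm44, Dnajc19, Timm22, Timm8b and Pmpcb. The gene that rose was Timm8a1, a small TIM chaperone. Falls were moderate, with log2 fold changes between -0.64 and -0.41, and the rise of Timm8a1 was 0.97. The other 19 genes did not pass the test in the fit by group. Calls rest on edgeR's quasi-likelihood test at an adjusted p below 0.05 over all genes tested. By the same test 16.5% of all genes were higher and 15.6% lower. With replicate numbers added to the fit as a block, 2 import genes were higher and 12 lower. All genes called in both directions were then 43.1%, against 32.2% without the block. The median log2 fold change of the 27 import genes was -0.21, against 0.02 over all genes tested, and 21 of the 27 values were negative. In 0 import genes did every ATF4 library exceed every GFP library, and in 3 (Tomm40l, Timm17b and Timm44) every ATF4 library was below every GFP library. The same held for 11.6% and 9.82% of all genes. The level of RNA in a bulk sample cannot tell fewer cells of a type from less RNA per cell. The part of the lower cardiomyocyte and higher endothelial markers in these differences was not tested.

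**Figure D1:**
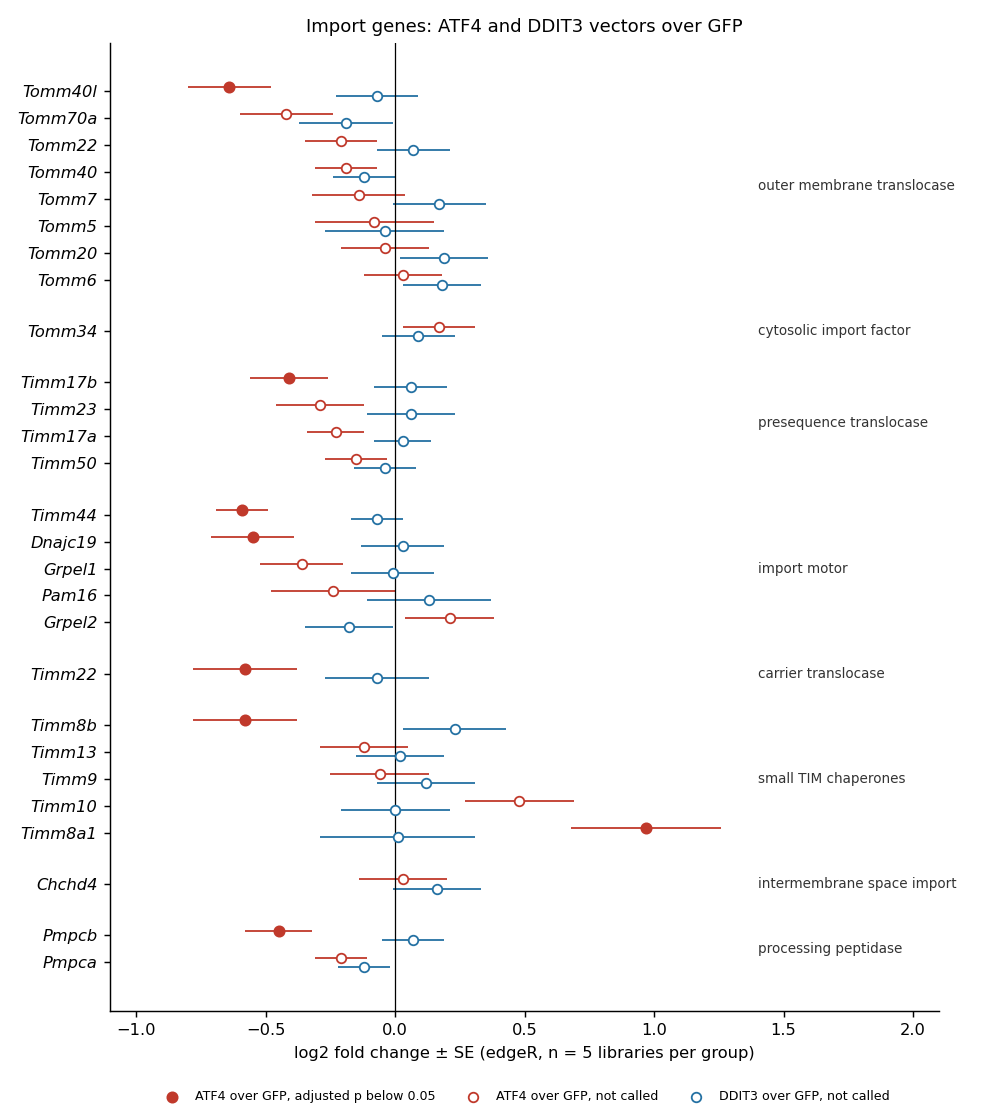
Log2 fold change ± SE (horizontal axis, edgeR) of the 27 tested import genes in ATF4 over GFP (red) and DDIT3 over GFP (blue), 5 libraries per group, ordered by role; filled circles have an adjusted p below 0.05. The 7 filled circles left of 0 and the 1 right of it are all ATF4 values, and the DDIT3 values lie between -0.19 and 0.23.

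Of 8 tested genes of the TOM complex, 1 fell (12.5%) and none rose, while 15.6% of all genes were called lower, so the count does not set the TOM genes apart. The other roles hold 1 to 5 tested genes each, and their counts are likewise no more than a description. Tomm40l, a relative of the pore-forming Tomm40, lies on chromosome 1 (171216011 to 171222514, mm10, minus strand). It measured 45.6, 42.4, 75.1, 69.3 and 62.5 CPM in the ATF4 libraries and 77.8, 89.0, 97.5, 104.3 and 91.9 CPM in the GFP libraries. All ATF4 libraries were below all GFP libraries. Its log2 fold change was -0.64 ± 0.16 (SE, edgeR adjusted p = 0.00456), and it passed the test under all 21 alternative settings. Of its annotated exon bases, all isoforms together, 64.3% (3304 of 5135) overlap exons of Nr1i3 on the other strand. The kit does not mark strand. The deposited gene length is 2920 bases, so the share within the counted gene is not known. Nr1i3 itself had 31 counts in ATF4 and 49 in GFP libraries in all.

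The pore Tomm40 did not pass the test, at 128.2 ± 22.1 CPM in ATF4 and 146.6 ± 9.33 CPM in GFP libraries (log2 fold change -0.19 ± 0.12, edgeR adjusted p = 0.229). The presequence receptors were Tomm20 at -0.04 ± 0.17 and Tomm22 at -0.21 ± 0.14 on the same scale. Tomm70a, the receptor for carrier proteins, had the largest difference among the receptors. It averaged 129.0 ± 34.1 CPM in ATF4 and 172.6 ± 35.7 CPM in GFP libraries, with overlapping groups (log2 fold change -0.42 ± 0.18, edgeR adjusted p = 0.0902), and passed without ATF4 replicate 5. The small subunits that hold the pore together, Tomm5, Tomm6 and Tomm7, had log2 fold changes of -0.08 ± 0.23, 0.03 ± 0.15 and -0.14 ± 0.18. The Tomm6 value is uncertain, since 76.0% of its exon bases are shared with Gm21981 on the same strand. Tomm34, a cytosolic factor that handles precursors before import, had 0.17 ± 0.14. None of these passed the test.

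Of the 4 TIM23 translocase genes found by symbol, Timm17b fell and the others did not pass the test, although all 4 values were negative. Timm21 of that translocase, under an older symbol, also fell (log2 fold change -0.61 ± 0.13, edgeR adjusted p = 0.00116). Timm17b is an X-linked channel subunit (X, 7899357 to 7908351, plus strand). It measured 22.2, 14.3, 26.9, 28.3 and 26.2 CPM in the ATF4 libraries and 29.5, 31.8, 31.8, 34.5 and 30 CPM in the GFP libraries. The groups did not overlap, and ATF4 replicate 2 was lowest. The log2 fold change was -0.41 ± 0.15 (edgeR adjusted p = 0.0363). The call was lost without ATF4 replicate 1 or GFP replicate 2, 3 or 4 (edgeR adjusted p = 0.0768, 0.0566, 0.0613 and 0.0787) and with only the ATF4 and GFP groups or only male libraries in the fit (0.060 and 0.148). Its more abundant relative Timm17a averaged 192.2 ± 33.3 CPM in ATF4 and 225.4 ± 17.4 CPM in GFP libraries (log2 fold change -0.23 ± 0.11, edgeR adjusted p = 0.132). Timm23, the other channel subunit, had -0.29 ± 0.17, and the receptor Timm50 had -0.15 ± 0.12. Timm23 has 6 near-identical copies in the annotation, and Timm17a and Timm17b have 1 each, so their counts are uncertain.

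The import motor held the import gene with the lowest adjusted p. Timm44 tethers the motor's Hsp70 to the translocase and lies on chromosome 8 (4259731 to 4275913, minus strand). It measured 70.3, 60.6, 81.1, 77.4 and 77.1 CPM in the ATF4 libraries and 107.7, 103.3, 128.5, 109.7 and 102.8 CPM in the GFP libraries. The highest ATF4 library was well below the lowest GFP library. The log2 fold change was -0.59 ± 0.10 (edgeR adjusted p = 0.000163), with adjusted p of 0.00118 or less under all 21 alternative settings.

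Dnajc19, a J-protein that stimulates the motor's Hsp70, also fell (chromosome 3, 34056020 to 34081321, minus strand). It measured 15.2, 14, 21.1, 22.1 and 14.2 CPM in the ATF4 libraries and 20.4, 29.9, 22.0, 31.8 and 22.4 CPM in the GFP libraries. In ATF4, 3 of 5 libraries were below every GFP library, and the groups overlapped. Its log2 fold change was -0.55 ± 0.16 (edgeR adjusted p = 0.0144), and the call was lost among male libraries only (-0.42, edgeR adjusted p = 0.108). A near-identical copy, Dnajc19-ps, matches its transcript over 351 bases, so its counts are uncertain.

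Pam16, the J-like partner that holds such a J-protein in place, had few counts, 13 to 29 per library. It averaged 2.39 ± 0.663 CPM in ATF4 and 2.83 ± 0.367 CPM in GFP libraries (log2 fold change -0.24 ± 0.24, edgeR adjusted p = 0.474). Its transcript is identical to that of Gm9803 over 534 bases. Exons of Glis2 on the other strand overlap 18.7% of its 2435 annotated exon bases, so its counts are uncertain. Its deposited gene length is 552 bases. The nucleotide exchange factors of the motor differed in sign. Grpel1 averaged 138.1 ± 34.6 CPM in ATF4 and 177.5 ± 24.4 CPM in GFP libraries (log2 fold change -0.36 ± 0.16, edgeR adjusted p = 0.0846). It passed the test without ATF4 replicate 3, ATF4 replicate 4 or GFP replicate 1. Grpel2, its stress-related relative, averaged 37.5 ± 8.73 CPM in ATF4 and 32.6 ± 6.6 CPM in GFP libraries (log2 fold change 0.21 ± 0.17, edgeR adjusted p = 0.37).

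Among the genes found by symbol, the carrier route held 1 translocase gene that fell and small TIM chaperones that moved in opposite directions. Timm29 of that translocase, under an older symbol, also fell (log2 fold change -0.48 ± 0.11, edgeR adjusted p = 0.00306). Timm22, the channel of the carrier translocase, lies on chromosome 11 (76406952 to 76416292, plus strand). It measured 29.0, 19.5, 46.5, 44.2 and 36.3 CPM in the ATF4 libraries and 37.4, 55.3, 50.2, 65.8 and 53.1 CPM in the GFP libraries. The lowest GFP library lay among the ATF4 values. The log2 fold change was -0.58 ± 0.20 (edgeR adjusted p = 0.0363). The call was lost without ATF4 replicate 1, 2 or 5 (edgeR adjusted p = 0.0896, 0.0693 and 0.0553), without GFP replicate 2, 3, 4 or 5 (0.0637, 0.0532, 0.0977 and 0.0608), and among male libraries (0.228).

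Timm8b, a small TIM chaperone, fell (chromosome 9, 50603910 to 50605320, plus strand). It measured 33.8, 31.3, 57.2, 63.9 and 36.3 CPM in the ATF4 libraries and 47.8, 84.2, 53.1, 86.0 and 62.4 CPM in the GFP libraries. ATF4 replicates 3 and 4 lay within the GFP range, and the other 3 were below it. The log2 fold change was -0.58 ± 0.20 (edgeR adjusted p = 0.034). The call was lost without ATF4 replicate 1, 2 or 5 (edgeR adjusted p = 0.0902, 0.0796 and 0.0796) and without GFP replicate 2 or 4 (0.0873 and 0.0957). With only the ATF4 and GFP groups in the fit (0.0606) or only male libraries (0.263) it was lost too. Exons of Nkapd1 on the other strand overlap 15.6% of the exon bases of Timm8b.

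Timm8a1, the chaperone that pairs with Timm13 and whose human counterpart is mutated in a deafness and dystonia syndrome, rose (X, 134537256 to 134541865, minus strand). It measured 4.29, 3.22, 4.97, 4.96 and 8.88 CPM in the ATF4 libraries and 2.28, 1.56, 2.60, 3.03 and 4.11 CPM in the GFP libraries. ATF4 replicate 5 was the highest, GFP replicate 5 the highest of its group, and ATF4 replicate 2 the only ATF4 library below it. These values rest on 22 to 70 counts per library in ATF4 and 12 to 26 in GFP. The log2 fold change was 0.97 ± 0.29 (edgeR adjusted p = 0.0172), and without ATF4 replicate 5 the call was lost (0.69, edgeR adjusted p = 0.0685). Over 612 bases its transcript is identical to that of Gm9797, so reads of the 2 genes cannot be told apart and the value is uncertain.

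The other small TIM genes did not pass the test. Timm10, which forms a ring with Timm9, averaged 54.6 ± 12.6 CPM in ATF4 and 39.1 ± 10 CPM in GFP libraries (log2 fold change 0.48 ± 0.21, edgeR adjusted p = 0.0883). The test was passed without ATF4 replicate 1 and also among male libraries (log2 fold change 0.77, edgeR adjusted p = 0.0339). Timm9 and Timm13 had log2 fold changes of -0.06 ± 0.19 and -0.12 ± 0.17.

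Of the processing peptidase, the catalytic subunit Pmpcb fell (chromosome 5, 21737141 to 21757152, plus strand). It measured 156.0, 121.6, 173.3, 199.6 and 180.6 CPM in the ATF4 libraries and 191.3, 222.8, 208.1, 251.8 and 261.5 CPM in the GFP libraries. ATF4 replicate 4 alone exceeded the lowest GFP library. The log2 fold change was -0.45 ± 0.13 (edgeR adjusted p = 0.0106), and the call was lost among male libraries only (-0.23, edgeR adjusted p = 0.155). The substrate-binding subunit Pmpca averaged 194.6 ± 16.4 CPM in ATF4 and 225.5 ± 24.9 CPM in GFP libraries (log2 fold change -0.21 ± 0.10, edgeR adjusted p = 0.104). Exons of Inpp5e on the other strand overlap 20.4% of the exon bases of Pmpca. Inpp5e had 1431 counts in ATF4 and 1913 in GFP libraries in all. Chchd4 differed little, at 44.7 ± 10 CPM in ATF4 and 44.0 ± 7.89 CPM in GFP libraries (log2 fold change 0.03 ± 0.17, edgeR adjusted p = 0.921).

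**Figure D2:**
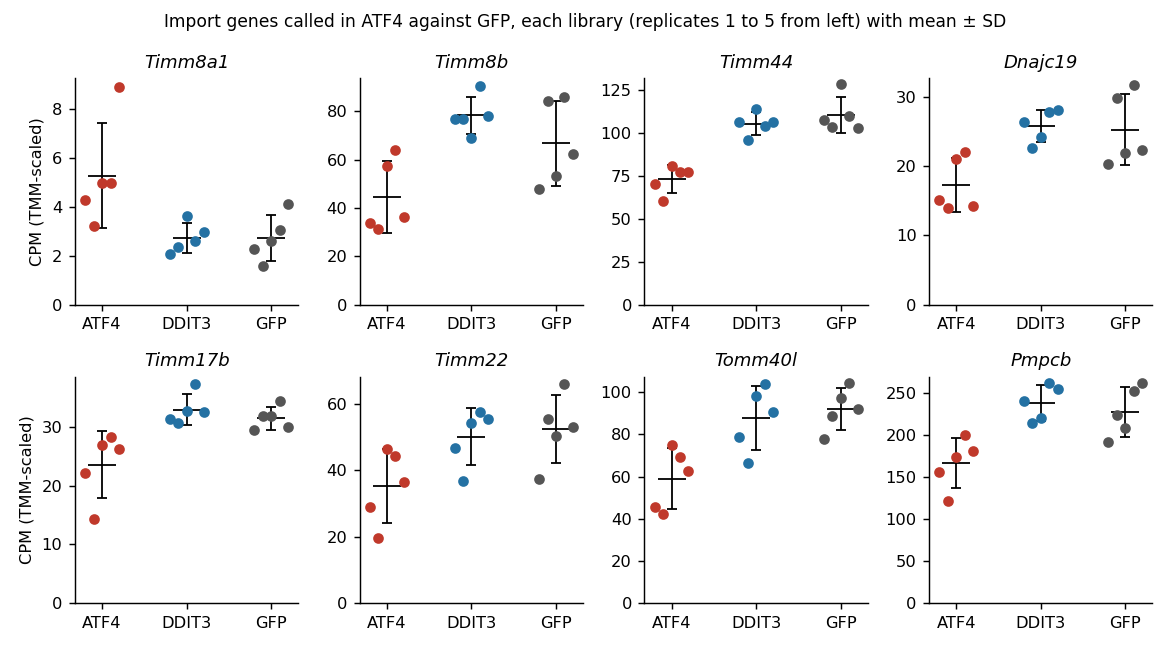
Level in CPM (vertical axes, from 0) of the 8 import genes called in ATF4 against GFP, with each library a point, replicates 1 to 5 from left to right, and the mean ± SD of each group as bars. Timm8a1 is higher in ATF4, at 5.26 ± 2.14 CPM against 2.71 ± 0.944 CPM in GFP; the other 7 are lower in ATF4, and DDIT3 points lie near the GFP points.

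In the authors' deposited table for ATF4 against GFP, 1 import gene was higher and 7 were lower at an adjusted p below 0.05, and all 8 were the genes named above. That table gives Timm44 a log2 fold change of -0.61 ± 0.12 and Timm8a1 one of 0.95 ± 0.34.

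RefSeq promoters (GRCm38.p6, 250 bases before to 50 after each start) were found for 26 of the 29 import genes and searched on both strands for 3 motifs. CARE (TGATGNAAT), the C/EBP-ATF response element through which ATF4 is known to act, was in 0 of the 26, and in 1.08% of 27025 genes with a promoter in the table. CRE (TGACGTCA), the cyclic AMP response element, was in 0 of 26, and in 2.03% of all genes. NRF1 (GCGCANGCG), for a factor known to drive mitochondrial genes, was in 5 of 26, or 19.2% (Chchd4, Pam16, Timm13, Timm8b and Tomm20), and in 7.03% of all genes. Of these 5, Timm8b alone was called in ATF4 against GFP. No promoter was found for Grpel2, Tomm7 or Tomm40l, so the called gene Tomm40l was not searched. The median GC content was 58.4% in the import promoters and 52.7% in all. The motifs do not overlap one another in these windows, and a missing match says only that these letters are not in the window. The promoters of the risen Timm8a1, its fallen relative Timm8b and the most clearly lowered gene, Timm44, are shown 5′ to 3′ on the gene's strand, with capitals marking an NRF1 match.
Timm8a1 (chrX:134541621-134541920, minus strand): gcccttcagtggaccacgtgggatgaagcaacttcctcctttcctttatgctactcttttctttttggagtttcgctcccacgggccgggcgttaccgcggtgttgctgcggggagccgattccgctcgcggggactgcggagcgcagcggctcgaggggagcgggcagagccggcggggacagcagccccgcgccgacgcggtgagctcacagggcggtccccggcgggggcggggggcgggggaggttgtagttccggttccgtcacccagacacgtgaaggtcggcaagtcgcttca
Timm8b (chr9:50603651-50603950, plus strand): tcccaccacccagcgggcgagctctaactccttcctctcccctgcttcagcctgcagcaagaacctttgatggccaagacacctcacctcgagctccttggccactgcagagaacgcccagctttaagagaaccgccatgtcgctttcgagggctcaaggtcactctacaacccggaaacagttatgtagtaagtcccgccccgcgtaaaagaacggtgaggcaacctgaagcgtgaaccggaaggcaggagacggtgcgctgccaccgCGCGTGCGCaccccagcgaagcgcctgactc
Timm44 (chr8:4275856-4276155, minus strand): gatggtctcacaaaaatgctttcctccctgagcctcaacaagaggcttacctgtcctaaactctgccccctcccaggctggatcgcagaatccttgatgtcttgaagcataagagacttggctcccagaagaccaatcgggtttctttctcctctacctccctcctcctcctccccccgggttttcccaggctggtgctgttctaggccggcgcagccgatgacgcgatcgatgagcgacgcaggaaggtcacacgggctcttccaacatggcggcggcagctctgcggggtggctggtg
The Timm8b match starts 20 bases into the transcript. The windows of Timm8a1 and Timm44, which moved in opposite directions, hold none of the 3 motifs.

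Count ratios of related genes with 1 role differed between ATF4 and GFP libraries. The log2 ratio of their counts within each library is free of library size. For 4 such pairs it was compared by two-sided exact permutation tests with Benjamini-Hochberg adjustment over 12 tests. These tests treated the libraries as unpaired. The ratio of Timm8a1 to Timm8b was -2.96, -3.25, -3.51, -3.67 and -2.02 in the ATF4 libraries and -4.35, -5.69, -4.31, -4.80 and -3.90 in the GFP libraries. No ATF4 library overlapped the GFP libraries, so Timm8a1 was the rarer gene throughout and less so in ATF4. The difference was 1.53 (exact p = 0.00794, the smallest that 5 against 5 can give, adjusted 0.019). Both genes were already called from the same counts, so this ratio adds no separate support. The identity of Timm8a1 with Gm9797 limits it as well.

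The ratio of Tomm40 to Tomm40l was 1.20, 1.35, 1.06, 0.90 and 1.19 in the ATF4 libraries and 0.81, 0.68, 0.73, 0.48 and 0.67 in the GFP libraries. Again the groups did not overlap (difference 0.46, exact p = 0.00794, adjusted 0.019). Tomm40l was already called from the same counts, so this ratio adds no separate support for its fall. The exon overlap of Tomm40l with Nr1i3 limits this ratio. The ratio of Grpel1 to Grpel2 was 1.83, 1.78, 2.27, 1.91 and 1.57 in the ATF4 libraries and 2.44, 2.71, 2.39, 2.61 and 2.12 in the GFP libraries. ATF4 replicate 3 alone exceeded the lowest GFP library (difference -0.58, exact p = 0.0159, adjusted 0.0238). Within this pair the share of Grpel2 was thus larger in ATF4, although neither gene passed the test alone. The ratio of Timm17a to Timm17b was 2.87, 3.40, 3.04, 2.98 and 2.93 in the ATF4 libraries and 2.76, 2.86, 2.83, 2.85 and 2.87 in the GFP libraries. The groups met at 2.87, and ATF4 replicate 2 was highest (difference 0.21, exact p = 0.0159, adjusted 0.0238). Timm17b was likewise already called, so this ratio adds no separate support for its fall. Without GFP replicate 1, 2, 3 or 4 the adjusted p of this last pair was 0.0833, 0.0595, 0.0833 and 0.0714. The other 3 pairs kept an adjusted p below 0.05 without any 1 library.

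**Figure D3:**
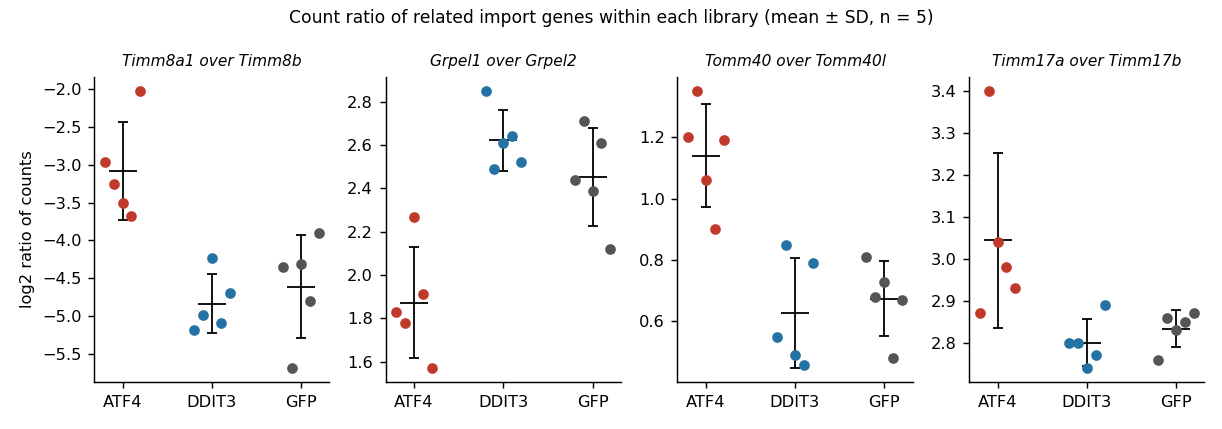
Log2 ratio of the counts of 2 related import genes within each library (points, replicates 1 to 5 from left to right) with the group mean ± SD, for 4 pairs; the vertical axes differ and do not start at 0. ATF4 points of Timm8a1 over Timm8b and of Tomm40 over Tomm40l lie above all DDIT3 and GFP points.

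No import gene passed the test in DDIT3 libraries. DDIT3 against GFP gave 0 higher and 0 lower, 0 at an unadjusted p below 0.05 and 0 by DESeq2, while 0.525% of all genes were called higher and 0.339% lower by edgeR. Log2 fold changes lay between -0.19 ± 0.18 (Tomm70a) and 0.23 ± 0.20 (Timm8b), with a median of 0.03 against 0.00 over all genes tested. Timm44 measured 106.3, 95.7, 114.3, 104.3 and 106.5 CPM in the DDIT3 libraries, which overlap the GFP libraries (log2 fold change -0.07 ± 0.10, edgeR adjusted p = 0.914). Timm8a1 measured 2.06, 2.36, 3.61, 2.60 and 2.96 CPM in the DDIT3 libraries, within the GFP range (0.01 ± 0.30, edgeR adjusted p = 0.997). The standard errors of 0.10 to 0.30 leave room for moderate changes, so a missed test does not show that a gene stayed the same. Within-library ratios of the 4 pairs differed between DDIT3 and GFP by -0.22 to 0.17 (exact p = 0.19 to 0.603). In the authors' deposited table for DDIT3 against GFP, 0 import genes had an adjusted p below 0.05.

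ATF4 set directly against DDIT3 tests whether the vectors differ. Of the 27 import genes, 1 was higher and 6 were lower in ATF4 than in DDIT3, where 17.8% and 16.0% of all genes were called higher and lower by edgeR. The higher gene was Timm8a1 (log2 fold change 0.95 ± 0.29, edgeR adjusted p = 0.0167), lost without ATF4 replicate 5 (edgeR adjusted p = 0.0699). The lower genes were Timm8b, Dnajc19, Tomm40l, Pmpcb, Timm44 and Timm17b, each of which passed under all 21 alternative settings. In the same comparison 10 of 10 endothelial markers were called higher, all without overlap, and 3 of 7 cardiomyocyte markers were called lower. The part of these in the import gene differences was not tested.

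Timm8b measured 76.7, 76.9, 68.9, 90.5 and 78.1 CPM in the DDIT3 libraries, above all 5 ATF4 libraries, and had the largest fall (log2 fold change -0.81 ± 0.20, edgeR adjusted p = 0.0047). Dnajc19 had -0.58 ± 0.16, Tomm40l -0.57 ± 0.16, Pmpcb -0.52 ± 0.13, Timm44 -0.52 ± 0.10 and Timm17b -0.48 ± 0.14 on the log2 scale. Every ATF4 library was below every DDIT3 library for 5 of these (all but Tomm40l), and 0 import genes were above in every library, while 12.3% of all genes were higher and 10.4% lower without overlap. Timm22 just missed the test (-0.51 ± 0.20, edgeR adjusted p = 0.0584). The within-library ratio of Timm8a1 to Timm8b was -3.08 ± 0.65 in ATF4 and -4.83 ± 0.38 in DDIT3 libraries (difference 1.75, exact p = 0.00794, adjusted 0.019). Both genes were called in this comparison from the same counts, so this ratio adds no separate support. The ratio of Grpel1 to Grpel2 was 1.87 ± 0.26 in ATF4 and 2.62 ± 0.14 in DDIT3 libraries, without overlap (difference -0.75, exact p = 0.00794, adjusted 0.019).

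Same-numbered ATF4 and DDIT3 libraries deviated together. When replicate numbers were added to the fit as a block, 3 import genes were higher and 11 lower in ATF4 than in DDIT3. Calls over all genes increased as well under the block, to 2628 higher and 2600 lower, or 44.3% of genes in both directions against 33.8% without it. The block added Timm10 (edgeR adjusted p = 0.00126) and Grpel2 (0.00411) to the higher genes. It added Timm22 (0.0087), Grpel1 (0.0123), Timm17a (0.0166), Tomm22 (0.0247) and Tomm70a (0.0275) to the lower ones. With this block, Grpel1 and Grpel2 were called in opposite directions. Without it, leaving out ATF4 replicate 1 gave 3 higher, with Timm10 and Grpel2 added, DDIT3 replicate 4 gave 2 higher, and ATF4 replicate 3 or 4 gave 10 or 9 lower. All genes called in both directions were then 28.5%, 31.2%, 33.9% and 31.9%, in that order of libraries.

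Medians of other mitochondrial lists were also below 0 in ATF4 against GFP. Of all genes tested, 15.6% were called lower and 16.5% higher in that comparison. Of 36 tested subunits of respiratory complex I, 29 were lower and 0 higher (median log2 fold change -0.58). Of 40 genes of complexes III to V, 28 were lower and 2 higher (median -0.51), and of 75 mitochondrial ribosomal proteins 32 were lower and 0 higher (median -0.35). The medians of these lists were further below 0 than the -0.21 of the import genes. DDIT3 against GFP called 0 genes in each of these lists. With 0.525% of all genes called higher and 0.339% lower there, a count of 0 does not set these lists apart. Among 18 other genes of import and folding, 4 were lower (22.2%) and 1 was higher (5.56%), with a median of -0.25. In a list of 18 genes these counts are no more than a description. The higher one was Hspa9, the Hsp70 of the import motor, at 2039 ± 213.5 CPM in ATF4 and 1151 ± 116.9 CPM in GFP libraries (log2 fold change 0.83 ± 0.11, edgeR adjusted p = 1.36e-05). Its tether Timm44 and its J-protein Dnajc19 thus fell in the libraries in which Hspa9 rose. The lower 4 were Aifm1, the partner of Chchd4 (-0.52 ± 0.09), Oxa1l, an inner membrane insertase (-0.51 ± 0.11), Romo1 (-0.48 ± 0.17) and the peptidase Mipep (-0.41 ± 0.14).

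Libraries of the ATF4 group differed among themselves in the import genes as a whole. Their levels summed to 1749 ± 310.7 CPM in ATF4 (1361 to 2052), 2095 ± 192.3 CPM in DDIT3 and 2110 ± 191.4 CPM in GFP libraries (SD, n = 5). ATF4 replicates 1 and 2 were below their group's mean in 25 and 26 of the 27 genes, with median deviations of -0.24 and -0.34 on the log2 scale. Replicates 3 and 4 lay above it, by 0.30 and 0.28. Over all genes tested these medians were -0.04 to 0.02 in the 5 ATF4 libraries. Complex I subunits shifted alike in the 4 libraries (-0.19, -0.45, 0.35 and 0.36). ATF4 replicate 2, the only ATF4 library from a female, also had the group's highest Atf4 level. It measured 536.9 CPM, against 350.8 to 397.6 CPM in the other ATF4 libraries. The part of sex or Atf4 level in its low import levels was not tested. In GFP, replicate 1 stood lowest at -0.27 and replicate 4 highest at 0.16. The median coefficient of variation of the import genes was 23.3% in ATF4, 12.2% in DDIT3 and 19.0% in GFP. Without ATF4 replicate 1, 2 import genes were higher and 4 lower against GFP, and without ATF4 replicate 2, 1 was higher and 5 lower. All genes called in both directions were then 26.8% and 31.2%, against 32.2% with all libraries. Without GFP replicate 2 or 4, 4 import genes were lower, with 30.6% and 28.4% of all genes called.

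**Figure D4:**
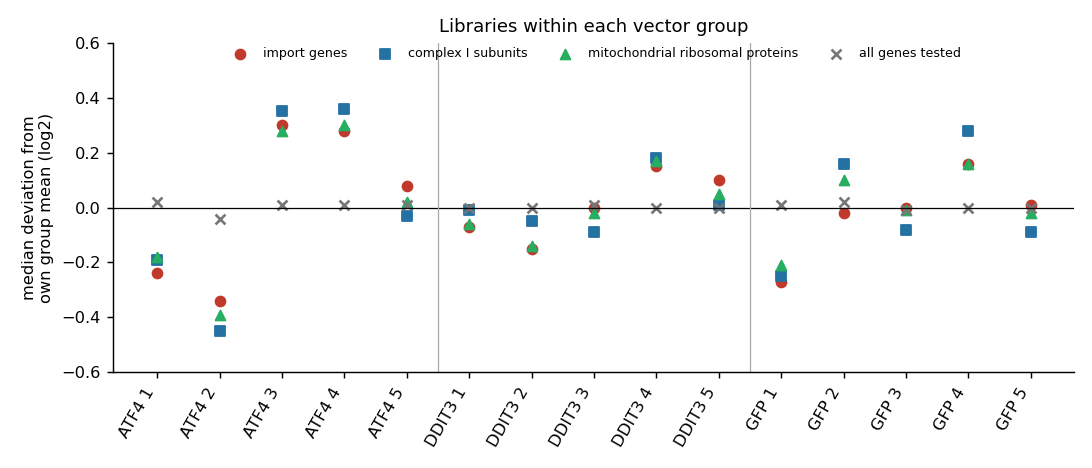
Median log2 deviation of each library from the mean of its own vector group (vertical axis), over the 27 import genes, 36 complex I subunits, 75 mitochondrial ribosomal proteins and all 11814 genes tested. In ATF4, the mitochondrial lists lie between -0.45 and 0.36 and deviate the same way in replicates 1 to 4, while all genes lie within -0.04 to 0.02.

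Levels between import genes were compared per kilobase of the deposited gene length. In GFP libraries Timm17a was highest at 245.8 ± 19.0 CPM per kb, followed by Pmpcb at 142.3 ± 18.4, Timm8b at 126.6 ± 33.4, Tomm22 at 89.3 ± 9.1 and Tomm40 at 88.0 ± 5.6 CPM per kb (SD, n = 5). Pmpcb and Timm8b, and likewise Tomm22 and Tomm40, differed by less than the larger of their SDs. Pmpca, Timm50, Timm44, Timm13, Timm10, Tomm5, Grpel1, Tomm70a, Tomm7, Chchd4 and Tomm40l followed, from 72.1 to 31.5 CPM per kb, and no neighbours among them differed beyond that SD. After Dnajc19 at 24.9 CPM per kb came Timm17b, Timm22, Timm9, Tomm6, Tomm34 and Timm23, from 19.2 to 13.7, again with no such step. Grpel2, Pam16, Tomm20 and Timm8a1 were lowest, at 8.05 ± 1.63, 5.13 ± 0.664, 3.92 ± 0.935 and 2.29 ± 0.798 CPM per kb. Near-identical copies in the annotation make several of these levels uncertain. Timm23 has 6, Tomm20 has 5, Tomm7 has 2, and Timm17a, Timm17b, Grpel2, Pam16, Dnajc19, Timm8a1, Tomm22 and Tomm5 have 1 each. In ATF4 libraries Timm8a1 stood at 4.45 ± 1.81 and Timm10 at 82.0 ± 19.0 CPM per kb, against 58.7 ± 15.1 for Timm10 in GFP.

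**Figure D5:**
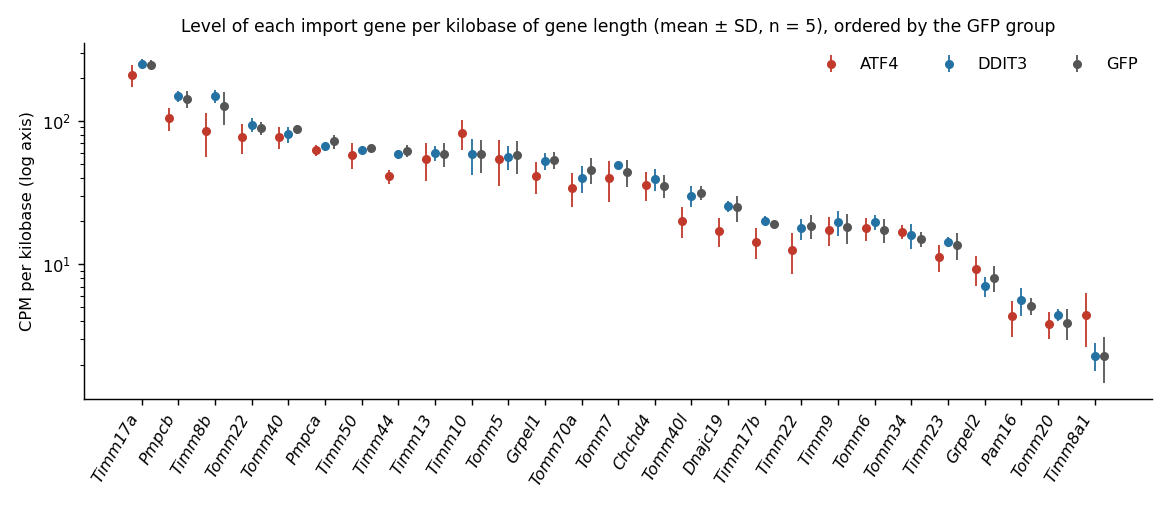
Mean level ± SD in CPM per kilobase of gene length (vertical log axis, n = 5 libraries per group) of the 27 tested import genes in ATF4, DDIT3 and GFP, ordered by the GFP mean. Timm17a is highest in all 3 groups, at 209.6, 250.9 and 245.8 CPM per kb.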

How the data were processed

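The authors deposited a table of read counts per gene symbol for 15 libraries, with a gene length column, which gave every result except those credited to their own tables. Per the submitters' processing notes, STAR, featureCounts, DESeq2 and DESeq were used on mm10; versions are not given in the sources used here. Per the labels, libraries were prepared with SMART-Seq v4 reagents and a Nextera XT kit, which do not mark strand; SMART-Seq3 is named for GFP replicate 5 and SMART-Seq2 for the other 14. Per the file headers, the 2 comparison tables the authors deposited hold a mean signal (mean normalised count), a log2 fold change, its standard error and a test score, and p-values, raw and adjusted.

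Counts were tested with edgeR 4.0.16 in R 4.3.3 (robust quasi-likelihood test, TMM, filterByExpr) in 1 fit of 15 libraries with group as the only term and 12 residual degrees of freedom, with Benjamini-Hochberg adjustment. The filter removed 11523 genes, of which 5744 had no counts. The 21 alternatives were DESeq2 1.42.0, RLE factors, no filter, a replicate block, fits of 2 groups or male libraries, and leaving out each library. In each comparison, 5 of them leave out a library of the group not compared, which acts only through the shared fit. The script was tested on simulated data. Library totals limit the precision. Ratios of counts used a pseudocount of 0.5. Fold changes are on the log2 scale with SE, and CPM with SD. For edgeR values the SE is the absolute log2 fold change divided by the square root of the test's F statistic. Libraries of 1 group differed beyond sampling noise (chi-square per degree of freedom of at least 8.6). The largest values, 44.3 to 50.4, were those of ATF4 replicate 2 against replicates 3, 4 and 5. Coordinates are from GENCODE M21 (GRCm38, the assembly of mm10). Exon overlaps are over all its isoforms of a gene. The deposited gene lengths differ from these, so overlaps within the counted genes are not known. Near-identical copies are transcripts matching over at least 150 bases at 95% (BLAST 2.17.0); 11 import genes have them.

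Groups and numbers came from the titles. Deviations of same-numbered libraries from their group means correlated across genes at 0.205 to 0.511 for DDIT3 and GFP. For ATF4 and DDIT3 they correlated at 0.135 to 0.497. All were above 0.1, so these numbers were taken to pair libraries, although the labels do not explain them. If so, they pair ATF4 and GFP libraries too, although replicate 2 correlated at 0.0783 there. The fit by group and the exact tests of ratios did not use this pairing.

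The import genes, lists and tests were chosen with earlier results of these data known. Values per library are given for import genes called in a comparison with GFP and for ratios of related genes, and genes outside the symbol search are named only from a list of other import genes; all others are given by mean or log2 fold change.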

Additional observations from a re-analysis of the deposited data

Results flagged for a closer look

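Within groups of 5 libraries, the gap of the highest or lowest library to its neighbour, divided by the group's range, exceeded Dixon's 95% critical value of 0.71 in 3 of 81 combinations of import gene and group. Chance flags about 1 in 20. Pam16 was high in ATF4 replicate 4, at 3.54 CPM where the next library had 2.34 CPM. Pam16 was low in DDIT3 replicate 5, at 1.88 CPM where the next had 3.19 CPM. These Pam16 values rest on 25 and 14 counts. Timm44 was high in GFP replicate 3, at 128.5 CPM where the next had 109.7 CPM; its fall in ATF4 passed the test without that library as well.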

How the results depend on the processing

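No import gene that was called changed sign under the alternatives. In ATF4 against GFP, import genes called higher and lower (1 and 7) were 2 and 12 when replicate numbers entered the fit as a block and 2 and 2 among male libraries, the cause of which was not tested. All genes called in both directions were 43.1% with the block and 24.7% among male libraries, against 32.2% in the fit by group. The block added Tomm70a, Timm10, Grpel1, Pmpca, Timm17a and Tomm40 (edgeR adjusted p = 0.000609, 0.00146, 0.0102, 0.013, 0.0301 and 0.0464). Same-numbered ATF4 and GFP libraries correlated at 0.0783 to 0.386, with only replicate 2 below 0.1. In this comparison 8 of 10 libraries correlated best with their own number, as did 8 of 10 for ATF4 and DDIT3. The latter were taken as paired, so the fit by group may ignore a pairing in ATF4 against GFP as well. Leaving out 1 library gave 0 to 2 higher and 4 to 8 lower. In ATF4 against DDIT3 (1 and 6) the paired block gave 3 and 11, and leaving out 1 library gave 0 to 3 higher and 6 to 10 lower. In DDIT3 against GFP the import genes stayed at 0 and 0 under all 21 alternatives, with 1 at an unadjusted p below 0.05 under the block and 2 among male libraries. All genes called in DDIT3 against GFP (62 higher, 40 lower) were 183 and 139 with the paired block, 129 and 95 by DESeq2, 39 higher among male libraries, and 35 to 89 higher and 19 to 57 lower without 1 library. The ratio of Timm17a to Timm17b, for which leaving out libraries was added after seeing the data, differed by 0.12 to 0.25 in ATF4 against GFP and 0.15 to 0.29 in ATF4 against DDIT3, and its adjusted p was above 0.05 in 4 of 10 cases each. A pseudocount of 1 in the ratios changed no call. Pam16 and Timm8a1 had at most 70 counts per library. Their transcripts are also identical to those of Gm9803 (over 534 bases) and Gm9797 (over 612 bases). How far depth or these copies limit their counts was not tested.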

Other observations

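Import genes that current nomenclature names Timm21, Timm29, Timm10b and Timmdc1 stand in the count table under the older symbols 1700034H14Rik, 1810026J23Rik, Fxc1 and 4930455C21Rik, which RefSeq lists as synonyms, and so were outside the symbol search. Timm21, a subunit that links the presequence translocase to the respiratory chain, averaged 38.3 ± 4.5 CPM in ATF4 and 58.6 ± 9.09 CPM in GFP libraries and fell (log2 fold change -0.61 ± 0.13, edgeR adjusted p = 0.00116). Timm29, a subunit of the carrier translocase, averaged 103.5 ± 17.7 CPM in ATF4 and 144.1 ± 7.8 CPM in GFP libraries and fell as well (-0.48 ± 0.11, edgeR adjusted p = 0.00306). Timm10b, a small TIM protein bound to that translocase, did not pass the test (-0.02 ± 0.13, edgeR adjusted p = 0.907), and nor did Timmdc1, an assembly factor of complex I (-0.30 ± 0.14, edgeR adjusted p = 0.118). In ATF4 against DDIT3, Timm21, Timm29 and Timmdc1 were lower (-0.44 ± 0.13, -0.38 ± 0.11 and -0.45 ± 0.14, edgeR adjusted p = 0.0112, 0.013 and 0.0218).

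The highest Timm8a1 values of the ATF4 and GFP groups were both in replicate 5, as were those of Tomm70a, at 174.5 CPM in ATF4 and 229.4 CPM in GFP. In DDIT3, replicate 5 was the highest for Tomm70a at 197.9 CPM but not for Timm8a1, at 2.96 CPM.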
